A study of Mus musculus with 6 samples.

Results

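The genes described here encode surface proteins, and the factors that go with them, of helper, regulatory and anergic T cells: Izumo1r, Nrn1, Ecm1, Itm2a, Cd7, Foxp3, Ikzf2 and Il1rl1. They were chosen from earlier results on these same arrays, with their differences between genotypes in view, so their values are a description, no p-value is given for any of them, and counts of them past a threshold stand only beside the background share of all genes. Each gene was taken from the row that a table of probes and genes pairs with exactly that symbol. This found 7 of the 8 genes among 19938 genes in all, each with 1 row (transcript clusters 10590974 for Izumo1r, 10408689 for Nrn1, 10500204 for Ecm1, 10606369 for Itm2a, 10394054 for Cd7, 10598292 for Foxp3 and 10355312 for Ikzf2). Il1rl1, which encodes ST2, the receptor of IL-33, had no such row, and its expression was not analysed here.

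Expression was measured in splenic CD8+ T cells (CD8-TC) of ICR mice, labelled as males aged 6 weeks, that were either WT (Runx3 +/+) or Runx3 -/-. Each genotype had 3 arrays, and every array held RNA from the cells of 1 mouse. All cells were positively selected on CD8, activated for 2 days with anti-CD3 and anti-CD28 and then kept for 4 days in IL-2 at 100 units per ml. The Runx3 -/- cells were in addition sorted by flow cytometry, against CD11c+ dendritic cells before culture and against CD4+CD8- cells after it, so genotype and sorting cannot be told apart. Runx3 is the Runt-domain factor of cytotoxic T cells that silences Cd4 in the CD8 lineage. The comparison addresses its target genes in activated cells.

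A T cell shows its state at the surface. Regulatory T cells, defined by the forkhead factor Foxp3 and often carrying the zinc finger factor Helios (Ikzf2), hold other T cells in check. Anergic T cells, which met antigen without full co-stimulation, respond poorly when they meet it again. Several surface proteins are shared by these states, among them folate receptor 4 (Izumo1r) and the 5'-nucleotidase CD73 (Nt5e), which together mark anergic CD4+ cells.

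The labels were checked on the arrays. Runx3 itself did not separate the groups, with 8.77, 8.26 and 9.16 on WT arrays 1 to 3 and 8.91, 9.11 and 9.27 on the knockout arrays (log2 scale, difference 0.37, SE 0.24, limma adjusted p = 0.521). The sources used here do not say where its probes lie relative to the deleted part, and the arrays are therefore called KO-labelled below. WT1 had Xist at 10.6 and the Y-linked Eif2s3y at 3.93, against 3.31 to 3.40 and at least 9.24 on the other 5 arrays, which goes against its label as male. T cell identity was present throughout: 9 of 11 listed T cell markers had a row, with a mean log2 level of 9.92 to 10.2 in WT and 10.2 to 10.4 in KO-labelled arrays, and Cd8a lay between 10.7 and 11.5. WT2 and KO2 lay at opposite ends of the first principal component, which held 49.6% of the variance. Array medians were between 4.15 and 4.35, and the median of the whole table, 4.26, stands in for background because the values carry no detection call.

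Of the 7 genes found, 4 were higher in KO-labelled cells (Ecm1, Izumo1r, Itm2a and Nrn1), 1 was lower (Cd7), and the factors Foxp3 and Ikzf2 differed by less than their own spread. The median difference over the 7 genes was 1.56 on the log2 scale, against -0.01 over the 10021 genes tested. The groups did not overlap for 3 of the higher genes and for Cd7, where 11.6% of tested genes lay apart in the higher and 10.9% in the lower direction. An adjusted p below the threshold of 0.05 was reached by 3 higher genes (background 0.269%) and 1 lower gene (background 0.359%). The looser rule of the study's methods (1.5-fold or more at p under 0.05, not adjusted) took 4 higher genes and 1 lower gene, where it takes 3.97% of tested genes as higher and 4.33% as lower. Since these differences were known when the genes were chosen, nothing is read from those counts. All 7 genes passed the filter on dim rows, Izumo1r through its KO-labelled arrays alone. In RNA from a bulk culture, fewer cells that carry a transcript and less of it per cell cannot be told apart, which holds for every gene given here.

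**Figure D1:**
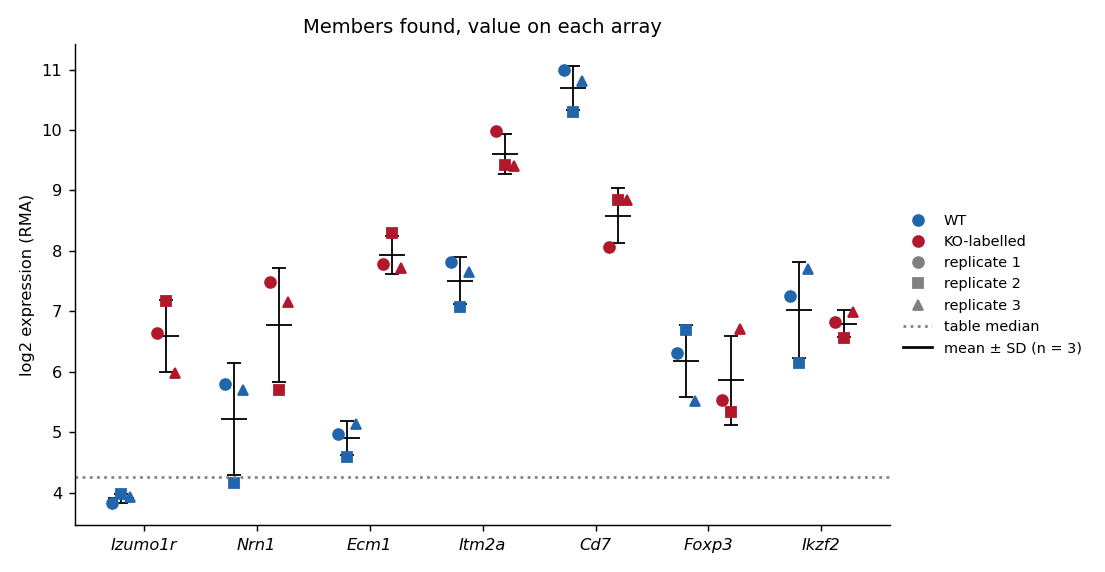
Log2 expression (RMA, vertical axis) of each gene found on each of the 6 arrays, with WT in blue, KO-labelled in red, marker shapes for replicates 1 to 3, bars for mean ± SD (n = 3) and a dotted line at the table median of 4.26. Izumo1r, Ecm1 and Itm2a are higher and Cd7 lower on every KO-labelled array, Nrn1 overlaps through KO2, and Foxp3 and Ikzf2 overlap widely.

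The promoters of Izumo1r, Ecm1 and Itm2a, which were higher on every KO-labelled array, and the first listed for Foxp3 are shown because the deleted factor reads a short DNA motif. Windows of Nrn1, Cd7 and Ikzf2 were not analysed here. RUNX factors bind TGTGGT and, as variants with other letters at the third and the sixth base, also TGTGGC as well as TGCGGT and likewise TGCGGC. These 4 motifs were searched on both strands of windows that run from 250 bases before to 50 after the annotated start, and capitals mark each match. No match overlapped another. Sequences are from RefSeq (build GRCm38.p6), written along the gene's own strand. In order, the windows are chr9:14903718-14904017 (minus strand), chr3:95739520-95739819 (minus strand), chrX:107403311-107403610 (minus strand) and chrX:7579426-7579725 (plus strand).
Izumo1r: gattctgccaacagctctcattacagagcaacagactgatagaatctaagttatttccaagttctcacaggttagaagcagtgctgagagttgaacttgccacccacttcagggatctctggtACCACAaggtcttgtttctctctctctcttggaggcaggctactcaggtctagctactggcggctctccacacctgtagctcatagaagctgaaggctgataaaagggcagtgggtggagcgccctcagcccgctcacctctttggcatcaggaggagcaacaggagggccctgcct
Ecm1: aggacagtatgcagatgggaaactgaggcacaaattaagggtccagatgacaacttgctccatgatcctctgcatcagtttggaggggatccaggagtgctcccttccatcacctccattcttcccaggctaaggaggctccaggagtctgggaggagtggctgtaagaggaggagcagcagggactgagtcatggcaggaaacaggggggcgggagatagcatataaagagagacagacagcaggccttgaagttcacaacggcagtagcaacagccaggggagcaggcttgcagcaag
Itm2a: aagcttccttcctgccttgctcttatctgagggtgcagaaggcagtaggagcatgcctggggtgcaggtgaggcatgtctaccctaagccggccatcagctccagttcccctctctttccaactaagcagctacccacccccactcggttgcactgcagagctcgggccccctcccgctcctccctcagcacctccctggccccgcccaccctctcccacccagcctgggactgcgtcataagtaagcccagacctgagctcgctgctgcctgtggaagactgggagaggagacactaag
Foxp3: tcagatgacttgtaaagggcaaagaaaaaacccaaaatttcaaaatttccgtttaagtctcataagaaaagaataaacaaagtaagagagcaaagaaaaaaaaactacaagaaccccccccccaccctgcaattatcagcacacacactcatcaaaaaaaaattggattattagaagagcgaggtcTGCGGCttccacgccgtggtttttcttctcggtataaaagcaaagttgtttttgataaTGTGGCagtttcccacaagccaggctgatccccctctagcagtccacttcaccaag

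Izumo1r had 1 match, TGTGGT read on the opposite strand and written as ACCACA, which begins 127 bases before the start. The Foxp3 window shown had TGCGGC 64 bases and TGTGGC 6 bases before its start, and a second Foxp3 window (chrX:7580233-7580532, plus strand, not shown) had TGTGGC on the opposite strand, written as GCCACA, 29 bases before that start. Neither Ecm1 nor Itm2a, the genes with an 8.14-fold and a 4.27-fold higher level, held these letters in the window. Of the windows of Il1rl1 (not shown), that at chr1:40429320-40429619 (plus strand) held no match. The other, at chr1:40439379-40439678 (plus strand), had TGTGGT 6 bases before its start. In the 7 windows listed for 5 of the 8 genes, 4 held a match, while 45.2% of all 32851 windows of that length held at least 1. By motif, TGTGGT was in 16.8% of windows, TGTGGC in 18.9%, TGCGGT in 6.45% and TGCGGC in 12.4%. A match describes letters and is not a measured binding site.

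Izumo1r encodes folate receptor 4 (also called Juno on the egg), a protein held in the membrane by a lipid anchor and carried by regulatory and anergic CD4+ cells. Its log2 level was 3.83, 3.97 and 3.93 on WT arrays 1 to 3, below the table median on each, and 6.64, 7.17 and 5.98 on KO-labelled arrays 1 to 3. The groups lay 2.01 apart at their nearest values, and every KO-labelled array was above every WT array. The mean was 3.91 ± 0.07 in WT and 6.60 ± 0.59 in KO-labelled cells (SD, n = 3 each), a difference of 2.69 (SE 0.29) or 6.44-fold on this scale. Because WT sat in the background range, only a bound can be read, and against the table median KO-labelled cells had at least 5.05-fold more signal. KO3 was the lowest of the KO-labelled arrays and KO2 the highest. Leaving out 1 array at a time gave differences of 2.40 to 2.99.

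Ecm1, a secreted glycoprotein of the extracellular matrix that T helper 2 cells produce, was higher in KO-labelled cells and above the table median on all 6 arrays. WT arrays gave 4.97, 4.59 and 5.13 and KO-labelled arrays 7.78, 8.29 and 7.71. The nearest values of the groups were 2.58 apart, more than the range within either genotype. Mean levels were 4.90 ± 0.28 and 7.93 ± 0.32 (SD, n = 3 each), so that KO-labelled cells were 3.02 higher (SE 0.22), or 8.14-fold. Single arrays left out moved this between 2.84 and 3.14, and with WT2 and KO2 both left out, a choice made after the data were seen, it was 2.69.

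Itm2a encodes a membrane protein with a BRICHOS domain that T cells induce when they are selected in the thymus or activated. It was well above the table median in both genotypes, at 7.81, 7.07 and 7.65 in WT and 9.98, 9.43 and 9.40 in KO-labelled cells. No KO-labelled array came within 1.59 of the highest WT array. The means were 7.51 ± 0.39 and 9.60 ± 0.33 (SD, n = 3 each), a difference of 2.09 (SE 0.25) or 4.27-fold. Itm2a lies on the X chromosome, and without WT1, the array with Xist, the difference was 2.24. The range over all single arrays left out was 1.87 to 2.24.

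Nrn1 encodes neuritin, first known from neurons and also made by anergic and regulatory T cells. Its WT values were 5.80, 4.16 and 5.70 and its KO-labelled values 7.48, 5.70 and 7.15. The second array was the low one in each genotype, WT2 fell under the table median, and KO2 was no higher than WT1, so the groups overlapped. Mean levels were 5.22 ± 0.92 and 6.77 ± 0.95 (SD, n = 3 each), with a difference of 1.56 (SE 0.59) or 2.94-fold. That difference was 1.02 without WT2 and 2.10 without KO2. With both left out it was 1.56 again.

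Cd7, an immunoglobulin-family receptor of T cells and NK cells whose ligand belongs to the Sectm1 family, was the gene found lower in KO-labelled cells. Its values were 11.0, 10.3 and 10.8 in WT against 8.06, 8.84 and 8.84 in KO-labelled cells. All KO-labelled arrays stood at least 1.45 below the lowest WT array and remained far above the table median. Means of 10.7 ± 0.36 and 8.58 ± 0.45 (SD, n = 3 each) gave a difference of -2.12 (SE 0.28), a WT level 4.33-fold that of KO-labelled cells. Leaving out single arrays gave -2.32 to -1.85.

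Foxp3, the factor that defines regulatory T cells, overlapped widely between the genotypes. Its values were 6.31, 6.70 and 5.52 in WT and 5.53, 5.33 and 6.70 in KO-labelled cells, so the highest array of each genotype had the same level. The mean was 6.18 ± 0.60 in WT and 5.86 ± 0.74 in KO-labelled cells (SD, n = 3 each), a difference of -0.32 (SE 0.43). With 1 array left out this ran from -0.74 to -0.06, and with WT2 and KO2 both left out it was 0.20. Foxp3 is also X-linked, and without WT1 the difference was -0.25.

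Ikzf2, which encodes Helios, gave 7.24, 6.15 and 7.69 in WT and 6.82, 6.56 and 7.0 in KO-labelled cells. All 3 KO-labelled values lay inside the WT range. Means were 7.03 ± 0.79 and 6.79 ± 0.22 (SD, n = 3 each) and differed by -0.24 (SE 0.38), which became 0.09 without WT3 and -0.68 without WT2.

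Within a genotype the genes did not move as 1 block. WT2 was the lowest WT array for 5 of the 7 genes, with deviations from the WT mean of -1.06 for Nrn1 and -0.88 for Ikzf2, whereas Foxp3 was 0.52 above its mean there. In KO3 the deviations from the mean of the KO-labelled arrays were 0.85 for Foxp3 and -0.62 for Izumo1r. Once each genotype's mean was taken off, Pearson's r over the 6 arrays was 0.81 for Nrn1 with Itm2a, 0.80 for Nrn1 with Ikzf2, -0.78 for Ecm1 with Foxp3, -0.73 for Izumo1r with Foxp3 and -0.37 for Foxp3 with Ikzf2. These points share arrays and the group means, and they describe 6 cultures only. Before the means were taken off, Izumo1r and Ecm1 had r = 0.98, and this value includes the gap between genotypes with which both genes were chosen.

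**Figure D2:**
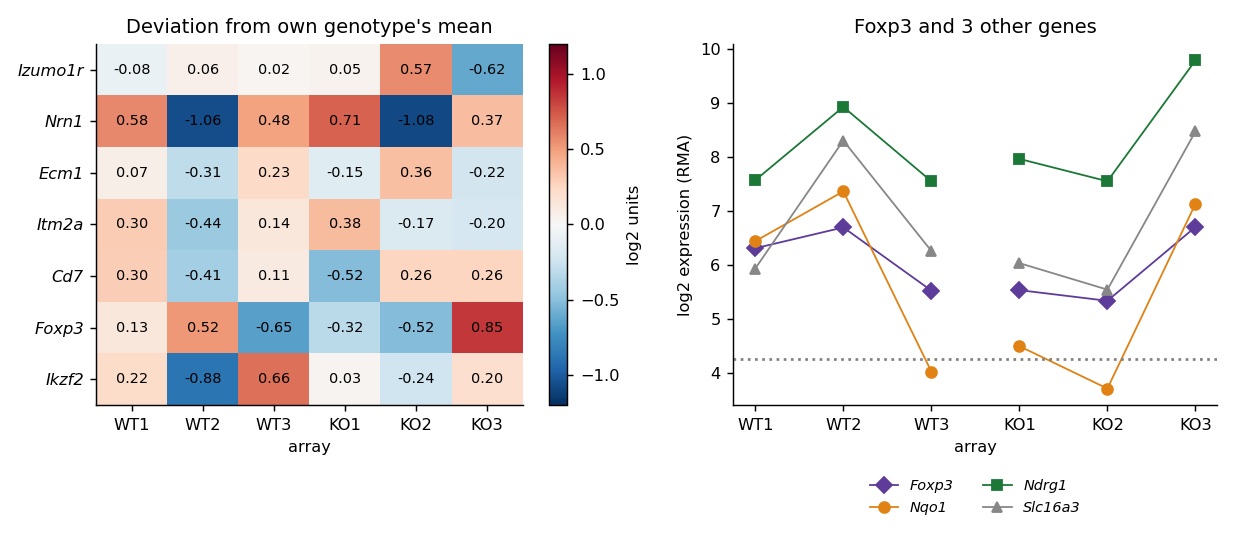
Left, deviation of each array from its own genotype's mean in log2 units for the 7 genes (rows) on the 6 arrays (columns). Right, log2 expression (RMA) of Foxp3, Nqo1, Ndrg1 and Slc16a3 on each array, lines joining arrays of 1 genotype and the dotted line marking the table median of 4.26, with WT2 and KO3 the highest arrays of their genotype for all 4 genes. Nqo1 was picked by its r with Foxp3, and Ndrg1 and Slc16a3 after their values were seen.

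For each gene, the tested genes with the most similar profile over the 6 arrays were found by Pearson's r, of which a high value is partly set by genotype. These r values are also the highest among 10021 tested genes over only 6 arrays. Such a selection gives high values by itself, so they are no evidence of shared regulation. Because Izumo1r, Ecm1, Itm2a and Cd7 were chosen with their genotype gap in view, genes like them share that gap by construction, and their differences carry no test here. P2rx7, which encodes an ATP-gated ion channel, followed Izumo1r (r = 0.998) and Ecm1 (r = 0.992), with 4.26, 4.27 and 4.35 in WT, at about the table median, and 6.77, 7.28 and 6.41 in KO-labelled cells. Cpm, a carboxypeptidase of the membrane, followed Izumo1r (r = 0.996), with WT arrays all under the table median and KO-labelled arrays at 4.94, 5.30 and 4.74. Gpcpd1, a glycerophosphocholine phosphodiesterase, followed Ecm1 (r = 0.994) with a difference of 0.97 (SE 0.14).

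Itm2a was most like Eps15 (r = 0.998), an endocytosis adaptor with a small difference of 0.35 (SE 0.12), and Sfmbt2 (r = 0.997), a Polycomb-group gene with a difference of 1.62 (SE 0.23). Cd7 was followed by Ncald (r = 0.996), a neuronal calcium sensor with a difference of -1.01 (SE 0.15), and by Ube2j2 (r = 0.994), an E2 ubiquitin-conjugating enzyme. The 2 nearest profiles of Nrn1, Prpf8 and Skiv2l, had r = 0.984, and those of Ikzf2, Zfp362 and Vmn2r17, had r = 0.976 and 0.975.

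The profiles nearest to Foxp3 were picked in the same way. Nqo1, the NAD(P)H quinone dehydrogenase of the oxidative stress response, had r = 0.994 with Foxp3, and Dnase2a, a lysosomal nuclease, had r = 0.985. Nqo1 was at 6.44, 7.37 and 4.02 in WT and 4.49, 3.71 and 7.13 in KO-labelled cells, so it spanned more than 3 log2 units within each genotype. Ndrg1 and the lactate exporter Slc16a3, a neighbour of Cd7, were set beside Foxp3 after their values were seen. Ndrg1, a gene induced by low oxygen and listed among anergy genes, was at 7.57, 8.93 and 7.55 in WT and 7.97, 7.55 and 9.80 in KO-labelled cells, with r = 0.78 to Foxp3. Slc16a3 had 5.93, 8.31 and 6.26, then 6.03, 5.54 and 8.48, with r = 0.85. WT2 and KO3 were the highest array of their genotype for Foxp3, Nqo1, Ndrg1 and Slc16a3, a likeness that the choice of these genes brings with it.

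The wider helper, regulatory and anergy programmes were read from lists that leave the 8 genes out. These lists too were written with earlier results of these data known, so counts and p-values from them are a description. The 71 tested genes of the lists, each counted once, had a median difference of 0.11. Of these, 2 were past the adjusted threshold as higher (background 0.269%) and 3 as lower (background 0.359%). By the study's threshold 15 were higher (background 3.97%) and 6 lower (background 4.33%). All p-values below are limma's, adjusted over the 10021 genes.

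Regulatory T cell genes had 4 calls past the adjusted threshold, and by the study's threshold 1 was higher and 5 were lower. Of 25 listed genes all had a row and 19 were tested, 1 rose and 3 fell past the adjusted threshold, and the median difference was -0.21. Itgae, the CD103 chain that holds T cells in epithelium, fell by 3.46, from 8.57, 8.86 and 7.61 in WT to 4.62, 4.23 and 5.82 (SE 0.48, limma adjusted p = 0.0380). Nt5e fell by 2.71, from 7.37, 7.68 and 6.88 to 5.19, 3.81 and 4.80 (SE 0.38, limma adjusted p = 0.0384). Gpr15, a homing receptor of the colon, was at 5.59, 6.54 and 6.23 in WT and under the table median on every KO-labelled array, so that it was at least 3.63-fold lower against that median (limma adjusted p = 0.0160). Rgs1, a brake on chemokine receptor signals, rose by 1.19 (SE 0.15, limma adjusted p = 0.0328). Itgae lost its call with any single array left out (adjusted p = 0.0515 to 0.121), and Nt5e lost it under median normalization (0.0504) and without WT1, WT2, WT3 or KO3 (up to 0.124). Gpr15 lost it without WT3 (0.0773) or KO3 (0.0839), and Rgs1 kept it with only KO2 left out (0.0380) among the 6 single omissions and lost it under median normalization (0.0650). Without the filter on dim rows Itgae (0.0928) and Nt5e (0.0922) missed the threshold as well.

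The list of anergy genes holds Nt5e but leaves out Izumo1r, which was chosen with its difference in view. Nt5e, counted on this list too, was lower in KO-labelled cells while Izumo1r, its partner in the usual definition of anergic cells, was higher on the same arrays. Of the 22 listed genes with a row 18 were tested, Nt5e was the 1 past the adjusted threshold, 2 were higher and 2 lower by the study's threshold (4 in all, but 2 without KO2 and 6 without WT1), and the median was 0.06, or -0.01 under median normalization. Of the early response factors Egr1, Egr2, Egr3, Nr4a1, Nr4a2 and Nr4a3, Egr1, Egr2 and Nr4a2 were dim on every array and not tested, and Egr3, Nr4a1 and Nr4a3 missed the threshold (limma adjusted p = 0.799, 0.809 and 0.446). In all, 4 genes of the list had an unadjusted p under 0.05.

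Helper lineage genes had the highest median difference of the 6 lists, 0.91. Of 14 tested among 25 with a row, 8 were higher and 0 lower by the study's threshold (8 at an unadjusted p under 0.05). That threshold takes 3.97% of all tested genes as higher and 4.33% as lower. Without KO3 it took 5 of the list, and 6 without WT2 or under quantile normalization. Il4, Il5, Il13, Il21, Il17a, Il17f, Il17rb, Cxcr5, Ccr8 and Ptgdr2 were under the table median on every array and not tested. Tbx21, Icos, Maf and Rora passed neither threshold. A single gene passed the adjusted threshold: Runx1, the Runt factor of thymocytes and helper cells, at 4.69, 4.45 and 4.64 in WT and 7.65, 7.42 and 8.22 in KO-labelled cells, rose by 3.17 (SE 0.22, limma adjusted p = 0.00489). Cd4 was 5.29, 5.80 and 6.50 in WT and 6.95, 6.70 and 6.77 in KO-labelled cells, a difference of 0.95 that missed it (limma adjusted p = 0.250). Gata3, the factor of T helper 2 cells, differed by 1.06 (limma adjusted p = 0.176) and Zbtb7b, the gene of the CD4-lineage factor ThPOK, by 0.64 (limma adjusted p = 0.342). The CD4 helper marker list, Cd4, Zbtb7b and Cd40lg, had a mean log2 level of 4.75 to 5.28 in WT and 5.36 to 5.64 in KO-labelled arrays, with 2 of the 3 genes tested and Cd40lg under the table median on every array. Its part in the levels of Izumo1r, Ecm1 and Itm2a was not tested.

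The list of the IL-1 and IL-33 receptor family and its signalling holds relatives of Il1rl1, whose own level these genes cannot give. None of the 9 tested genes of this list, of 15 with a row, passed either threshold in limma. In it, 1 gene had an unadjusted p under 0.05, and the median difference was -0.07. Traf6, the ubiquitin ligase below these receptors, had the smallest p and differed by 0.41 (limma adjusted p = 0.267). Il18r1 and Il18rap, the chains of the IL-18 receptor that lie next to Il1rl1, were bright on every array and differed by 0.23 and -0.23 (limma adjusted p = 0.699 and 0.767).

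Family relatives of the genes gave 0 adjusted calls among 10 tested in limma, 3 at an unadjusted p under 0.05 and a median of 0.17. Aiolos (Ikzf3), the relative of Helios with the smallest p, differed by 0.80 (limma adjusted p = 0.230). Partners and ligands gave 1 adjusted call among 10 tested, Runx1 again, which acts with Foxp3 on shared DNA, and a median of 0.28. Both Sectm1 genes, which encode ligands of CD7, were dim on every array.

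**Figure D3:**
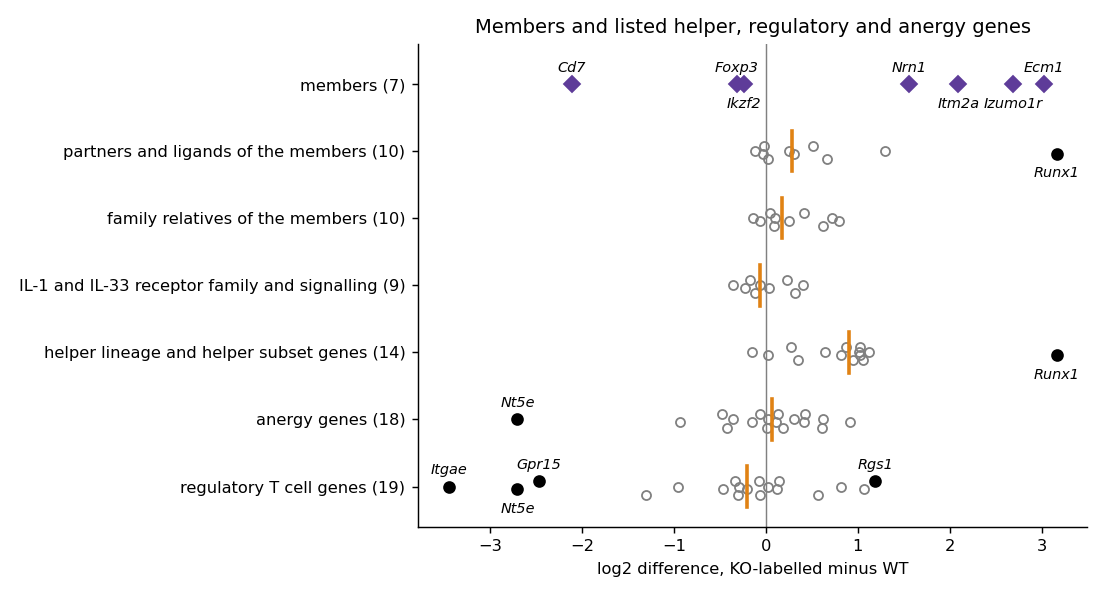
Log2 difference, KO-labelled minus WT (horizontal axis), of the 7 genes found (diamonds) and of the tested genes of 6 lists that leave them out (circles, number tested in parentheses). Filled circles passed the adjusted threshold, orange ticks are list medians, and the grey line is at 0; helper genes have a median of 0.91, regulatory T cell genes of -0.21.

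Markers of other cell types were few and mostly dim. Of 12 dendritic cell markers 2 were tested, and the list's mean was 3.50 to 3.68 in WT and 3.52 to 3.81 in KO-labelled arrays. B cell markers had 1 of 6 tested, NK cell markers 3 of 5, macrophage markers 1 of 6, mast cell markers 2 of 8, innate lymphoid group 2 markers 2 of 8 and erythroid markers 0 of 1. None passed the adjusted threshold in limma, and an unadjusted p under 0.05 was reached by 1 B cell, 2 NK cell, 1 mast cell and 1 innate lymphoid marker. The innate lymphoid list, whose cells are the best known carriers of ST2, had a mean of 4.36 to 4.54 in WT and 4.64 to 4.91 in KO-labelled arrays. Il7r was 2.57 higher in the latter (limma adjusted p = 0.0718), and Rora differed by 0.27. Il7r is not particular to innate lymphoid cells, as the study also measured it by qPCR in IL-2-activated CD8-TC. The other listed genes with a row, Il17rb, Klrg1, Arg1, Il5, Il13 and Nmur1, were under the table median on every array. The NK cell list, whose cells also carry Cd7, had a mean of 5.24 to 5.44 in WT and 4.39 to 4.79 in KO-labelled arrays. That fall came from Eomes (mean 9.28 in WT and 7.52 in KO-labelled arrays) and Klrb1c (5.31 and 3.76). Klrb1c was under the table median on every KO-labelled array. Eomes is not particular to NK cells, as the study also describes it acting with Runx3 in the maturation of CD8-TC. Ncr1 and Klra8 were under the table median on every array, and Itga2 was 0.11 higher in KO-labelled arrays. The part of NK cells in the level of Cd7 was not tested.

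Neighbouring genes were taken as the 2 nearest protein-coding genes with a row on each side (gene order of assembly GRCm38.p6). Of 32 neighbours 19 were tested, none passed the adjusted threshold in limma (lowest 0.126), 4 had an unadjusted p under 0.05, and the median difference was 0.23. The groups lay apart for 7 of them, all higher in KO-labelled cells, beside the 11.6% given above.

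Around Itm2a, 3 of the 4 neighbours were among those 7, while Tbx22 was dim. Gpr174, a lysophosphatidylserine receptor, had 7.45, 6.29 and 6.74 in WT and 8.28, 8.58 and 7.93 in KO-labelled cells, a difference of 1.43 (limma adjusted p = 0.126). P2ry10b, a receptor of the same family, differed by 1.05 and 2610002M06Rik by 0.76 (limma adjusted p = 0.289 and 0.169). Next to Ecm1 the survival gene Mcl1, Adamtsl4 and Tars2 lay apart, with differences of 0.34 for Mcl1 and 0.41 for Tars2. Adamtsl4 was under the table median on all WT arrays and on KO1 (4.10). Gpr83, a receptor of regulatory T cells that adjoins Izumo1r, was also among those 7. It was above the table median on KO2 alone (4.75, with 3.91 and 3.73 on the other KO-labelled arrays), so its groups lay apart largely in the background range. No tested neighbour of Nrn1, Cd7, Foxp3 or Il1rl1 had groups that lay apart, and the 4 neighbours of Ikzf2 were all dim.

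**Figure D4:**
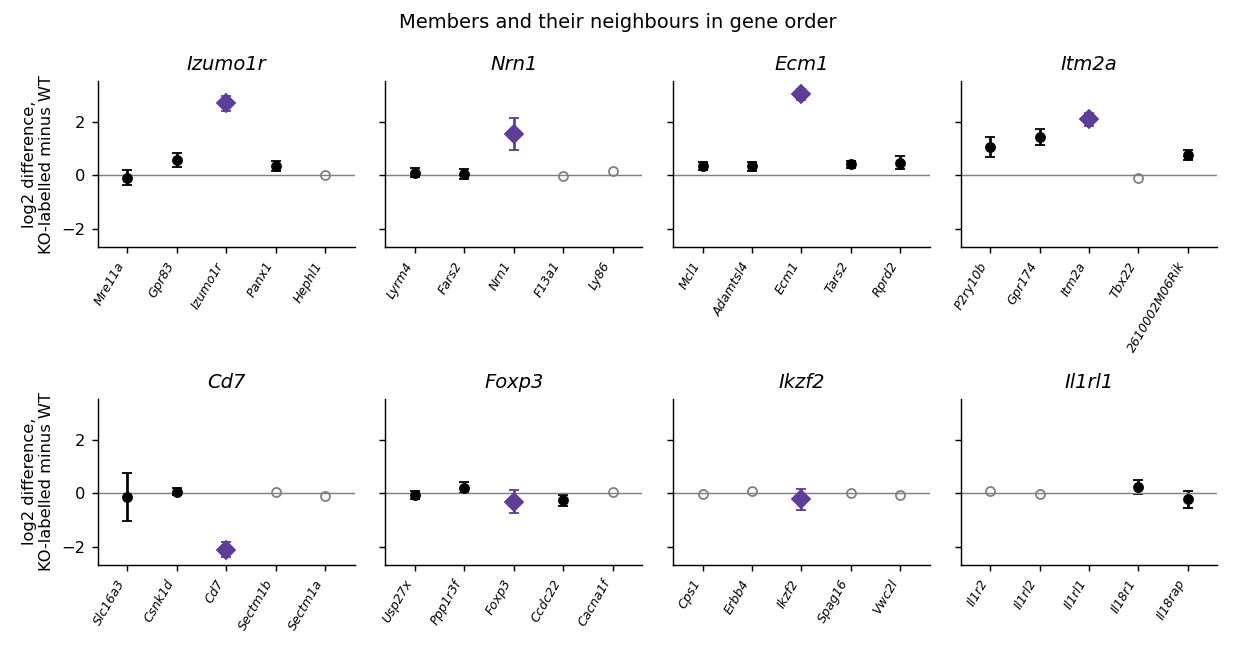
Log2 difference, KO-labelled minus WT (vertical axis), of each gene (diamond) and of its 2 neighbours on either side in gene order (horizontal axis), with bars for the moderated SE and open circles for genes too dim to be tested. The neighbours of Itm2a reach 1.43, those of Cd7 and Foxp3 lie near 0, and Il1rl1 has no value of its own.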

How the data were processed

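RNA of cultured CD8-TC from 6 individual mice, 3 per genotype, was hybridised to Affymetrix mouse gene ST 1.0 arrays. The authors normalised the scanner files in Partek by RMA with GC correction and deposited log2 values, with a column for each array. The sources used here name no version of Partek or its annotation and no background level. RMA compresses low values, which understates differences of dim genes.

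Of 35399 rows, 21789 had exactly 1 symbol, 1621 several and 11989 none. Each of 19938 genes was read from its brightest row, and the 10021 genes whose highest value reached the table median were tested with limma 3.58.1 in R 4.3.3 (lmFit and eBayes, two-sided, no covariate, Benjamini-Hochberg adjustment). Differences are KO-labelled minus WT with moderated SE. Each p reflects mouse-to-mouse and culture-to-culture spread together. The fit was checked on simulated data.

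The genes and lists were chosen with earlier results of these data known. Named are all 8 genes, up to 4 genes past the adjusted threshold per list or else the smallest p, the neighbours, the 2 most similar profiles per gene, and markers beside a result. Ndrg1, Gata3, Il7r, and the Egr and Nr4a genes were singled out after their values were seen. As alternatives, no filter or a stricter one was set on dim rows, columns were quantile- or median-normalised, a gene's rows were averaged, trend and robust priors or a replicate block were used, and each array was left out. Same-numbered arrays did not deviate together (r = -0.13, -0.37 and -0.13), so numbers were not taken as pairs. Figures used matplotlib 3.10.9.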

Additional observations from a re-analysis of the deposited data

How the results depend on the processing

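Only 3 arrays per genotype limit the precision, and counts past the adjusted threshold moved most. Of 98 differences of the 7 genes under 14 alternatives, 97 moved by less than 1 SD, the exception being Ecm1, at 2.69 with WT2 and KO2 left out (chosen after the data were seen). The filters, averaged rows, priors and replicate block left every difference of these genes unchanged by construction, so that part of the count is no check. Moves under 1 SD also include changes of sign, to 0.20 for Foxp3 with WT2 and KO2 left out and to 0.09 for Ikzf2 without WT3. The number of genes past the adjusted threshold was 63, and it was 36 without a filter on dim rows and 9 (without KO3) to 67 (without KO1) with single arrays left out, with 17, 26, 16 and 28 without WT1, WT2, WT3 and KO2. The count by the study's threshold, 832, ran from 652 to 1257 (without KO1). Among the 7 genes, the number past the adjusted threshold was 4, and it was 2 without the filter. With single arrays left out it was 1 to 4 (1 without WT1, WT2 or WT3, 2 without KO2 or KO3). Regulatory T cell genes had 4 calls, with 2 without the filter, 2 under median normalization and 0 (without WT3 or KO3) to 3 (without KO2) with single arrays left out, 1 without WT1 or WT2 and 2 without KO1. For anergy genes, with 1 call, there were 0 without the filter, 2 under quantile and 0 under median normalization, and 0 (without WT1, WT2, WT3 or KO3) to 1 with single arrays left out. By the study's threshold, relatives had 3 calls but 0 without WT2 and 1 without KO2 or KO3, and partners 3 but 1 without WT2 or KO2. Helper genes had 2 adjusted calls in place of 1 with WT2 and KO2 left out. With the replicate number as a block, though nothing pairs the arrays, 1 gene in all passed, 0 of the 7 genes, and 0 of the regulatory, anergy, helper and partner lists (Runx1 adjusted p = 0.0742). The causes were not tested.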
